A study of Mus musculus with 12 samples.

Results

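The antigen presentation machinery for MHC class I was followed in brain cortical endothelial cells of adult mice. The set comprises 10 genes chosen by name: the light chain gene B2m, the classical heavy chain genes H2-K1 and H2-D1, the peptide loading genes Tap1, Tap2 and Tapbp, the immunoproteasome subunit genes Psmb8, Psmb9 and Psmb10, and the transactivator gene Nlrc5. All 10 were among the 21638 genes of the deposited table, and all 10 were among the 12577 genes that were tested, whose counts averaged 10 or more over the 12 libraries. The rule lists them by name and uses no measured value, but the members were chosen with earlier results of these data known. Shares of members called below are therefore descriptions. The study had 4 groups of 3 libraries: WT; Hdac2 ECKO (Hdac2lox/lox with Cdh5CreERT2); Ezh2 ECKO (Ezh2lox/lox with Cdh5CreERT2); and beta-catenin GOF (Ctnnb1lox/lox with Cdh5CreERT2, in which beta-catenin is constitutively active). Cdh5CreERT2 is a Cre recombinase driven by the VE-cadherin promoter and switched on by tamoxifen, so recombination is directed to endothelium. Per the labels' protocols, the mutants were given tamoxifen in 5 doses of 75 mg/kg and brains were collected 2 months later; tamoxifen treatment and Cre carriage of the WT mice, and the animals' exact age, were not stated. Cells were sorted as CD31+, CD41- and CD45-, which keeps endothelium and removes platelets and leukocytes, and their RNA was amplified with SMART-Seq v4 PLUS. The labels do not say whether the libraries of a group came from separate animals, so p-values measure only the spread between these libraries, which may be technical.

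MHC class I molecules display peptides from proteins made inside the cell to CD8 T cells. Proteasomes cut cytosolic proteins into peptides, the TAP transporter carries the peptides into the endoplasmic reticulum, tapasin and its partners load them onto a heavy chain paired with beta-2-microglobulin, and the complex moves to the cell surface. Interferon-gamma acts through IRF1 among other factors and raises these genes together: the immunoproteasome subunits take the places of the constitutive catalytic subunits, and NLRC5 acts with the RFX complex at class I promoters. Brain endothelium lines the blood-brain barrier, and its class I molecules are seen by CD8 T cells at the vessel wall.

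Class I promoters carry short elements bound by NF-kappaB, by interferon regulatory factors and by NF-Y, and the windows below are shown because they hold, or lack, those elements upstream of members whose levels are described next. Promoter sequences were available for 8 of the 10 members in RefSeq's table on GRCm38.p6; Tap2 and Nlrc5 had no entry. Each run is the 250 bases before the RefSeq start, 5′ to 3′ on the gene's strand, and capitals mark every match, on either strand, to GAAANNGAA, GAANNGAAA or GGGGATTCC. The windows are chr2:122147437-122147686 (plus strand) for B2m, chr17:34000348-34000597 (minus strand) for H2-K1, chr17:35262844-35263093 (plus strand) for H2-D1 and chr17:34187331-34187580 (minus strand) for Psmb9, whose window lies between divergent Psmb9 and Tap1 and overlaps the Tap1 window. The RefSeq starts of H2-D1 and Psmb9 lie 364 and 434 bases inside the genes as the deposited table bounds them, and that of Tapbp, whose window is not shown, lies 3579 bases from the start in the table.
B2m: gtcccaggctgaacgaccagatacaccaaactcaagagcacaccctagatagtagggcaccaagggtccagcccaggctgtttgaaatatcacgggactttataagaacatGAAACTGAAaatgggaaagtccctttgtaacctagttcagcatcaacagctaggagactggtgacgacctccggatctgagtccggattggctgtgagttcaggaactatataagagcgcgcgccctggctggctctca
H2-K1: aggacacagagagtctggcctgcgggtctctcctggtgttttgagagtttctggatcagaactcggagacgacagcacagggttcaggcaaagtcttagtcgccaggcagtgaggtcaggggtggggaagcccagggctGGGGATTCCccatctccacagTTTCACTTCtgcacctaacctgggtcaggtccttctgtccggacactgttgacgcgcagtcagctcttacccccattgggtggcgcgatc
H2-D1: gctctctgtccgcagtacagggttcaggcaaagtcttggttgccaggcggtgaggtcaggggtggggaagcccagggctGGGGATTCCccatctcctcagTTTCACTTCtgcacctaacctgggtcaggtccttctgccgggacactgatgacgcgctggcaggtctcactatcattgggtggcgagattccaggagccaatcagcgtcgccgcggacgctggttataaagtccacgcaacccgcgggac
Psmb9: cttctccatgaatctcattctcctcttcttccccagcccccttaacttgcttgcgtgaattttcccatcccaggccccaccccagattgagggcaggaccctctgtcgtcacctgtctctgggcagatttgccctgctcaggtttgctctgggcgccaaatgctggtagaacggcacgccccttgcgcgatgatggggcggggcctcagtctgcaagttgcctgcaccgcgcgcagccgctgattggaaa
The B2m window held GAAANNGAA, the repeat of the interferon-stimulated response element, at 139 to 131 bases before the start; 7.13% of 32851 promoter windows of this length held a match. The H2-K1 and H2-D1 windows each held GGGGATTCC, from the NF-kappaB site of class I enhancer A, which 0.213% of all windows held. It lay at 111 to 103 bases before the H2-K1 start and at 171 to 163 bases before the H2-D1 start. Both windows also held GAANNGAAA, read on the minus strand and found in 6.31% of all windows, at 90 to 82 and 150 to 142 bases before the start. The spacing differs between GAAANNGAA and GAANNGAAA, so a match to the first is not by itself a match to the second. The aligned stretch of the H2-K1 and H2-D1 windows was identical at 167 of 191 bases (87.4%). ATTGG, the core of the NF-Y box, was present in 6 of the 8 windows and in 33.8% of all windows. Its Tap1 and Psmb9 matches, 222 to 218 and 8 to 4 bases before the start, are the same site in overlapping windows. The 6 windows therefore do not hold 6 separate sites. TTCNNNGAA, the gamma-activated site, was present in the Psmb8 window and in 7.02% of all windows. The Psmb9 window shown held ATTGG and no other motif searched. These matches describe letters in fixed windows, and no binding was measured here.

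The libraries held 24781070 to 36109975 counts each, and the floor of 3 counts corresponded to 0.0792 to 0.118 CPM (counts per 1000000 of the TMM-scaled library total, the unit of every level below). The targeted genes were checked first. Hdac2 was at 163, 122 and 104 CPM in WT replicates 1, 2 and 3 and at 82.2, 95.0 and 112 CPM in Hdac2 ECKO, which overlapped. It was at 88.6, 92.3 and 108 CPM in beta-catenin GOF, so the lower mean was not particular to Hdac2 ECKO. The log2 fold changes of Hdac2 against WT were −0.42 in Hdac2 ECKO and −0.43 in beta-catenin GOF. Ezh2 was at 8.88, 2.69 and 8.69 CPM in WT and at 9.85, 5.19 and 11.7 CPM in the Ezh2 ECKO libraries, not lower than WT, which goes against the label, so they are called labelled Ezh2 ECKO throughout. Ctnnb1 was at 546, 608 and 809 CPM in WT and at 696, 576 and 478 CPM in beta-catenin GOF. None of the targeted genes passed in its own mutant against WT (edgeR adjusted p 0.225, 0.615 and 0.962). Gene-level counts do not resolve the floxed exons, so they do not show whether recombination took place in any mutant, Hdac2 ECKO included. All 18 endothelial markers were detected in every group, and their summed level was 44550 to 55021 CPM in WT, 36722 to 40390 in Hdac2 ECKO, 43639 to 60913 in labelled Ezh2 ECKO and 50754 to 60034 in beta-catenin GOF. Itm2a, Ly6c1 and Ly6a dominate that sum, at 16138, 15448 and 12080 CPM in WT replicate 2. Of the 18 markers, 7 had log2 fold changes below 0 in Hdac2 ECKO, and the median was 0.19 against 0.10 over all tested genes. There 0 were called lower and 1 higher, against 5.38% and 3.82% of tested genes.

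WT replicate 2 stood apart for these genes. All 10 members had their highest level of the 12 libraries in WT replicate 2, against 7.53% of all tested genes. Relative to the mean of WT replicates 1 and 3, it held 9.84-fold as much Nlrc5, 9.76-fold as much Tap1, 4.55-fold as much Psmb9 and 4.13-fold as much Psmb8. Tap2 (2.31-fold), Psmb10 (2.21-fold), Tapbp (1.97-fold), H2-D1 (1.96-fold), H2-K1 (1.81-fold) and B2m (1.78-fold) differed less. The median over the members was 2.26-fold, and over all tested genes 0.966-fold. The interferon-induced transcription factor gene Irf1 was 2.43-fold higher in that library, while Rfx5, a subunit of the RFX complex, was at 0.996-fold. The constitutive catalytic subunits Psmb5, Psmb6 and Psmb7 were at 0.981-fold, 0.910-fold and 0.946-fold. The rise in WT replicate 2 was not particular to the members. Of interferon-responsive genes outside them, Igtp was at 22.9-fold, Gbp4 at 13.1-fold, Ifit3 at 3.25-fold and Isg15 at 1.96-fold. Icam1, of the interferon-gamma list, was at 0.879-fold. Igtp, Gbp4 and Icam1 are named after their values were seen. Every comparison of a member against WT is therefore given with and without this library.

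**Figure D1:**
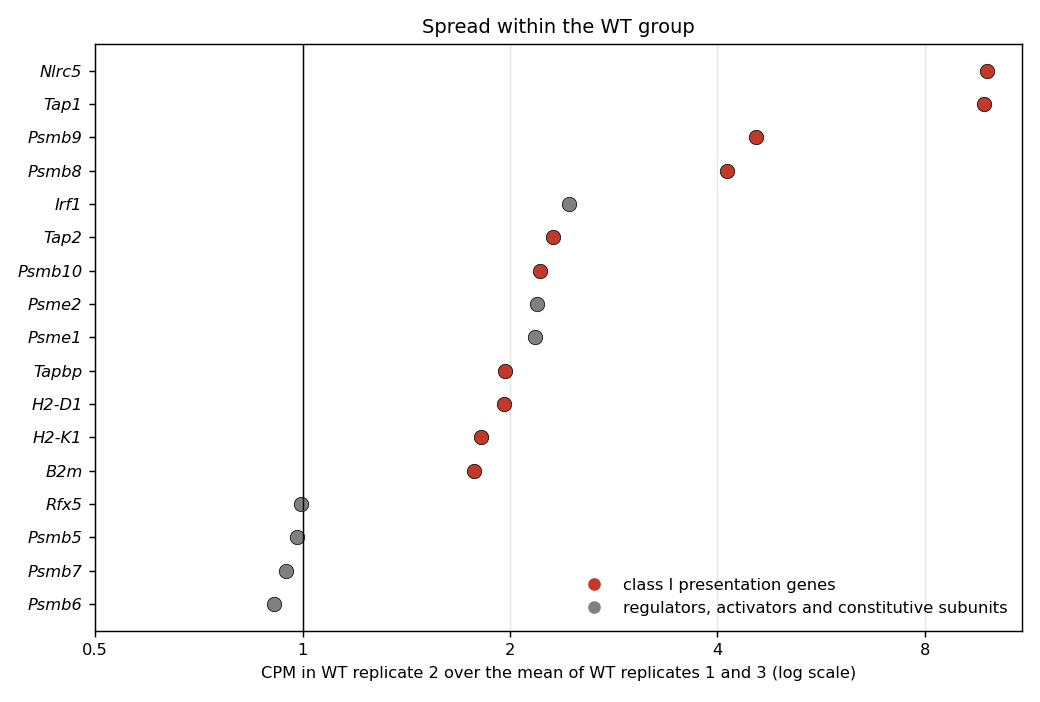
Level (CPM) in WT replicate 2 divided by the mean of WT replicates 1 and 3, on a log axis, for the 10 class I presentation genes (red) and for regulators, proteasome activators and constitutive catalytic subunits (grey). The red points lie between 1.78 for B2m and 9.84 for Nlrc5, and the constitutive subunits and Rfx5 lie just below 1.

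Against WT, a heavy chain gene and all 3 immunoproteasome subunit genes fell in Hdac2 ECKO. H2-D1, Psmb8, Psmb9 and Psmb10 fell by 1.36, 1.89, 1.87 and 1.61 on the log2 scale (edgeR adjusted p 0.0338, 0.0409, 0.0425 and 0.0388). These 4 of 10 members compare with 5.38% of the 12577 tested genes called lower, 3.82% called higher and 9.2% called in either direction. The same 4 were below every WT library in all 3 Hdac2 ECKO libraries, where 18.2% of tested genes did not overlap in that direction. All 10 members had log2 fold changes below 0, as had 46% of tested genes, but Tapbp, at −0.06, turned to 0.20 with scaling by library size alone and to 0.19 after a trend on gene length and GC content was removed. Their median was −1.06 against 0.10 over all tested genes. Scaling by library size alone moved the median of all genes to 0.34, and the members' median stood 1.15 below it, against 1.16 in the TMM-scaled fit. With the length and GC trend removed the members' median of −0.78 stood 0.81 below that of all genes, and 0 of the 4 calls passed, while 6.29% of tested genes were called. Library-size scaling also turned the calls over all genes from 58.5% lower to 19.6% lower.

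No member passed in the other mutants in the fit of all libraries. In labelled Ezh2 ECKO 0 of 10 members were called by edgeR (1.03% of tested genes were, 0.684% lower and 0.342% higher), with 6 members at an unadjusted p under 0.05 against 24.7% of tested genes. Other fits called members there, beside larger shares of all genes: DESeq2 called 2 members (and 10.4% of genes), limma-trend 1 (1.93%) and voom with sample quality weights 6 (29.8%). With edgeR, no filter on low counts gave 5 members (6.72% of genes), a mean of at least 50 counts gave 1 (2.02%) and the replicate block gave 3 (4.26%). H2-D1 was the 1 member whose values lay below all WT values, against 10.9% of tested genes. The median log2 fold change was −0.90 against 0.05 over all tested genes, and 9 members were below 0, as were 47.4% of tested genes; H2-K1, at −0.31, turned to 0.18 after the length and GC trend was removed. In beta-catenin GOF 0 of 10 members were called by edgeR, as were 0% of tested genes, with 6 members at an unadjusted p under 0.05 against 6.07%. DESeq2, limma-trend and voom called 0 members there, with 38, 1 and 26 genes in all, and edgeR without a filter called 4 members and 0.772% of genes. H2-D1 again lay below all WT values (5.87% of tested genes did), the median was −0.74 against 0.01, and 10 members were below 0 (48.9% of tested genes). The 3 comparisons share the WT libraries, so their values are given side by side and are not independent of each other.

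Without WT replicate 2 no member passed in any of the 3 comparisons, in fits that called 0, 2 and 0 genes of 12597 for Hdac2 ECKO, labelled Ezh2 ECKO and beta-catenin GOF. Those are 0%, 0.0159% and 0% of tested genes. At an unadjusted p under 0.05, edgeR had 3, 2 and 0 members there, against 25.4%, 17% and 4.29% of tested genes. The members' medians became −0.41, −0.26 and −0.20, and 6 of 10 were below 0 in each. For Hdac2 ECKO the log2 fold changes of H2-D1, Psmb8, Psmb9 and Psmb10 were then −0.96, −0.86, −0.75 and −1.13 (edgeR adjusted p 0.105 to 0.234). Tap1, Tap2, Tapbp and Nlrc5 were above 0 in that comparison, at 0.58, 0.12, 0.34 and 1.54. The 4 calls were also lost without WT replicate 1, without Hdac2 ECKO replicate 1 and without Hdac2 ECKO replicate 3, where edgeR called 0, 1 and 0 genes in all. In the labelled Ezh2 ECKO comparison, 3 members passed without WT replicate 3, where 9.04% of tested genes did, and 4 passed without labelled Ezh2 ECKO replicate 2, where 18.5% did.

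**Figure D2:**
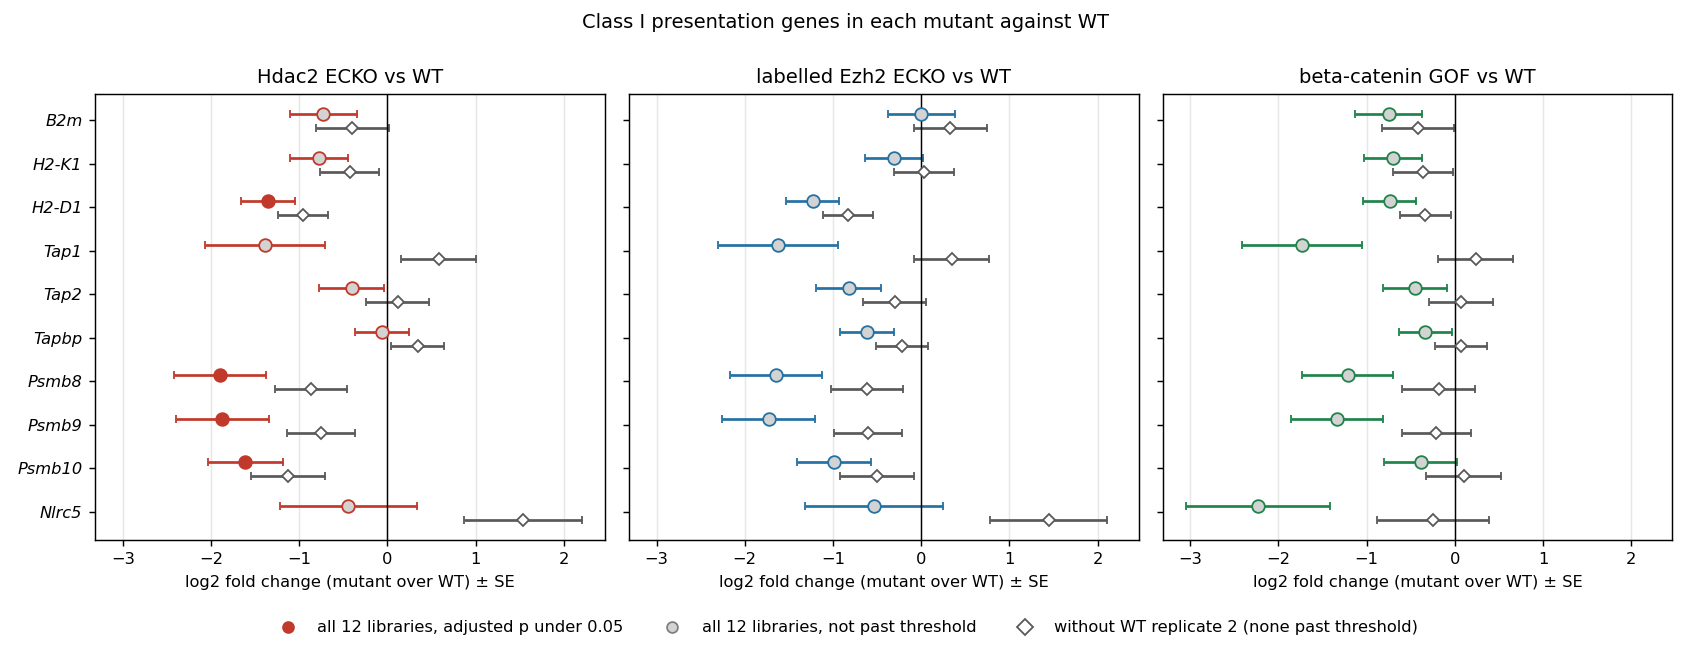
Log2 fold change ± SE (edgeR) of each member in each mutant against WT, from all 12 libraries (circles) and without WT replicate 2 (diamonds); filled red circles passed the threshold. Filled circles appear for H2-D1, Psmb8, Psmb9 and Psmb10 in Hdac2 ECKO, and the diamonds of Tap1 lie above 0 in all 3 panels.

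Light and heavy chains came first among the members by abundance. B2m (ENSMUSG00000060802.8, chromosome 2, 122147686 to 122153083, plus strand, GRCm38, overlapping Patl2 on the opposite strand) encodes beta-2-microglobulin, the invariant partner of every class I heavy chain. Its level was 6765, 20466 and 16295 CPM in WT, against 7839, 6266 and 12194 in Hdac2 ECKO, 13867, 13277 and 16404 in labelled Ezh2 ECKO, with 11232, 8657 and 6020 in beta-catenin GOF. WT replicate 1 was nearer to the mutants with the lowest means than to the other WT libraries, and all 3 mutants overlapped WT. The log2 fold changes were −0.73 (SE 0.38), 0.00074 (SE 0.38) and −0.75 (SE 0.38) in that order, and none passed (edgeR adjusted p 0.192, 0.999 and 0.855). They became −0.40, 0.33 and −0.42 without WT replicate 2. The labelled Ezh2 ECKO mean of 14516 CPM was close to that of WT, 14509 CPM, and above those of Hdac2 ECKO and beta-catenin GOF. The differences from those 2 mutants, 0.73 and 0.75 in size on the log2 scale, did not pass either (edgeR adjusted p 0.630 and 0.405).

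H2-K1 (ENSMUSG00000061232.16, chromosome 17, 33996017 to 34000347, minus strand), a classical heavy chain gene, was at 286, 759 and 551 CPM in WT and at 305, 292 and 337 CPM in Hdac2 ECKO. It was at 435, 285 and 567 CPM in labelled Ezh2 ECKO and at 359, 354 and 266 CPM in beta-catenin GOF. WT replicate 1 lay below all 3 Hdac2 ECKO libraries, so the groups overlapped although the WT mean of 532 ± 237 CPM (SD, n = 3) exceeded that of Hdac2 ECKO, 311 ± 22.98 CPM. Log2 fold changes of −0.77 (SE 0.33), −0.31 (SE 0.33) and −0.71 (SE 0.33) did not pass (edgeR adjusted p 0.119, 0.582 and 0.821). In fits without WT replicate 2 these values were −0.43, 0.04 and −0.36.

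H2-D1 (ENSMUSG00000073411.11, chromosome 17, 35262730 to 35267499, plus strand), the other classical heavy chain gene measured, was at 597, 1115 and 540 CPM in WT. It was at 221, 321 and 337 CPM in Hdac2 ECKO, 252, 393 and 314 CPM in labelled Ezh2 ECKO, and 422, 521 and 407 CPM in beta-catenin GOF. All 9 mutant libraries lay below all 3 WT libraries. The beta-catenin GOF libraries all lay above those of Hdac2 ECKO, as for 16.1% of tested genes. Group means ran from high to low in the order WT (750 ± 317), beta-catenin GOF (450 ± 61.6), labelled Ezh2 ECKO (320 ± 70.8) and Hdac2 ECKO (293 ± 62.6 CPM; SD, n = 3 each), where the last pair overlapped. The log2 fold change was −1.36 (SE 0.30) in Hdac2 ECKO, −1.23 (SE 0.30) in labelled Ezh2 ECKO and −0.74 (SE 0.30) in beta-catenin GOF (edgeR adjusted p 0.0338, 0.0561 and 0.776). They became −0.96, −0.83 and −0.34 without WT replicate 2. The heavy chain genes belong to a multigene family: 6.9% of the 75-base windows of the H2-D1 transcript recurred exactly in another gene, mostly H2-Q1, and 1.55% of those of H2-K1 recurred in H2-D1, so some reads could have been assigned to a copy or dropped.

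**Figure D3:**
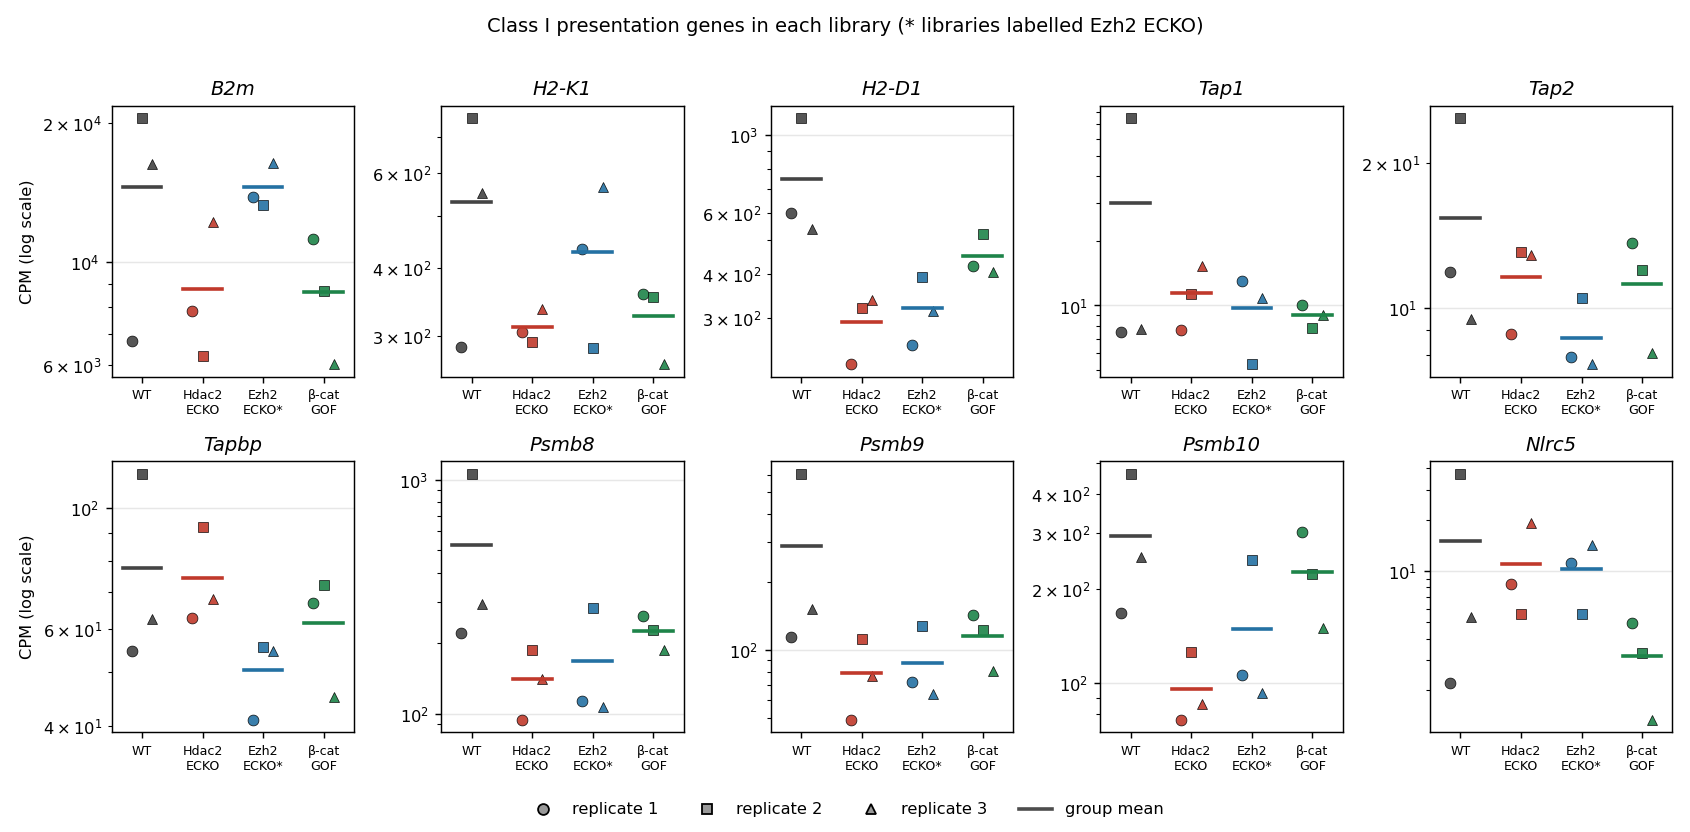
CPM of the 10 members in each library, on log axes that differ between panels; symbols mark replicate numbers and bars the group means. The square of WT replicate 2 is the highest point in all 10 panels, and for H2-D1 all 9 mutant libraries lie below the 3 WT libraries.

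The peptide loading genes passed in no comparison. Tap1 (ENSMUSG00000037321.17, chromosome 17, 34187553 to 34197225, plus strand), which encodes 1 chain of the peptide transporter, was at 7.50, 74.6 and 7.80 CPM in WT, and ranged from 5.31 to 15.3 CPM over the 9 mutant libraries. WT replicates 1 and 3 thus lay inside the mutant range. The log2 fold changes of −1.39 (SE 0.68), −1.63 (SE 0.68) and −1.74 (SE 0.68) did not pass (edgeR adjusted p 0.165, 0.159 and 0.770), and without WT replicate 2 they were 0.58, 0.34 and 0.24.

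Tap2 (ENSMUSG00000024339.12, chromosome 17, 34203527 to 34216321, plus strand), the other transporter chain, was at 11.9, 24.7 and 9.51 CPM in WT. It was at 8.86, 13.1 and 12.9 CPM in Hdac2 ECKO, 7.91, 10.5 and 7.65 CPM in labelled Ezh2 ECKO, and 13.6, 12.0 and 8.07 CPM in beta-catenin GOF, overlapping WT in each. Its log2 fold changes were −0.41 (SE 0.37), −0.82 (SE 0.37) and −0.45 (SE 0.37), with edgeR adjusted p 0.458, 0.185 and 0.918, and 0.12, −0.30 and 0.07 without WT replicate 2. Tapbp (ENSMUSG00000024308.15, chromosome 17, 33915899 to 33929292, plus strand) encodes tapasin, which bridges the transporter and empty class I molecules. It was at 54.6, 115 and 62.6 CPM in WT, against 62.8, 92.3 and 68.1 CPM in Hdac2 ECKO, 41.0, 55.8 and 54.7 CPM in labelled Ezh2 ECKO, and 67.1, 72.3 and 45.1 CPM in beta-catenin GOF. WT replicates 1 and 3 lay below all 3 Hdac2 ECKO libraries, and the log2 fold changes of −0.06, −0.62 and −0.33 (SE 0.30, 0.31 and 0.30) did not pass (edgeR adjusted p 0.911, 0.222 and 0.930). In the absence of WT replicate 2 they stood at 0.34, −0.22 and 0.07. Tap1 overlaps Psmb9 on the opposite strand, Tap2 and Psmb8 overlap the antisense gene Gm20496, and Tapbp overlaps Zbtb22 on its own strand. Whether strand was used in counting is not given in the sources used here, so reads in those overlaps cannot be told apart.

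The immunoproteasome subunits held 3 of the 4 calls in Hdac2 ECKO. Psmb8 (ENSMUSG00000024338.15, chromosome 17, 34197721 to 34201454, plus strand), which replaces Psmb5 in the core particle, was at 220, 1058 and 293 CPM in WT. It was at 94.2, 188 and 141 CPM in Hdac2 ECKO, 113, 282 and 107 CPM in labelled Ezh2 ECKO, and 262, 228 and 186 CPM in beta-catenin GOF. All 3 Hdac2 ECKO libraries lay below WT, whereas replicate 2 of the labelled Ezh2 ECKO libraries and replicates 1 and 2 of beta-catenin GOF lay between WT replicates 1 and 3. The log2 fold changes were −1.89 (SE 0.52), −1.65 (SE 0.52) and −1.22 (SE 0.51), and the first passed (edgeR adjusted p 0.0409, 0.0876 and 0.784). They were −0.86, −0.62 and −0.19 without WT replicate 2.

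Psmb9 (ENSMUSG00000096727.3, chromosome 17, 34181987 to 34187764, minus strand), which replaces Psmb6, was at 114, 605 and 152 CPM in WT and at 48.9, 112 and 76.6 CPM in Hdac2 ECKO. It was at 71.9, 127 and 63.6 CPM in labelled Ezh2 ECKO and at 142, 122 and 80.2 CPM in beta-catenin GOF. Hdac2 ECKO replicate 2 stood just under WT replicate 1, so the groups did not overlap, by a narrow margin. The log2 fold changes of −1.87 (SE 0.53), −1.73 (SE 0.53) and −1.34 (SE 0.52) had edgeR adjusted p 0.0425, 0.0826 and 0.763, and without WT replicate 2 they were −0.75, −0.60 and −0.21.

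Psmb10 (ENSMUSG00000031897.9, chromosome 8, 105935735 to 105938444, minus strand, overlapping Gm16156 on the opposite strand), which replaces Psmb7, was at 167, 463 and 252 CPM in WT and at 76.6, 126 and 85.8 CPM in Hdac2 ECKO. It was at 106, 246 and 93.5 CPM in labelled Ezh2 ECKO and at 302, 223 and 149 CPM in beta-catenin GOF. The beta-catenin GOF libraries all lay above the Hdac2 ECKO libraries, as for 16.1% of tested genes, and spanned WT replicates 1 and 3. Its log2 fold changes against WT were −1.61 (SE 0.43), −0.99 (SE 0.42) and −0.39 (SE 0.42), with edgeR adjusted p 0.0388, 0.164 and 0.940; without WT replicate 2 they were −1.13, −0.50 and 0.10. In these full-length libraries log2 fold change followed gene length across the 12577 tested genes (Spearman 0.44, 0.29 and 0.14 for the 3 mutants). After a trend on length and GC content was removed from every library, 0 members passed in Hdac2 ECKO; the 4 members called before then had edgeR adjusted p from 0.0530 to 0.0740. Psmb8 and Psmb9 stood at −1.63 and −1.66 there, Psmb10 at −0.95 and H2-D1 at −0.74.

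Each immunosubunit was next set against the constitutive subunit whose place it takes, as a ratio of counts per base of gene length within a library, which library scaling cannot move. Psmb8 over Psmb5 was 0.362, 1.56 and 0.377 in WT, against 0.284, 0.341 and 0.383 in Hdac2 ECKO, 0.257, 0.238 and 0.286 in labelled Ezh2 ECKO, with 0.333, 0.308 and 0.224 in beta-catenin GOF. Hdac2 ECKO thus overlapped WT in this ratio, and the other mutants lay below WT. Psmb9 over Psmb6 was 0.134, 0.573 and 0.104 in WT, at most 0.0952 in Hdac2 ECKO, at most 0.0714 in labelled Ezh2 ECKO and at most 0.104 in beta-catenin GOF. Psmb10 over Psmb7 was 1.41, 3.30 and 1.42 in WT, against 0.691, 1.33 and 0.801 in Hdac2 ECKO, 0.800, 1.05 and 0.654 in labelled Ezh2 ECKO, with 1.70, 1.68 and 1.21 in beta-catenin GOF. For Psmb9 over Psmb6 and for Psmb10 over Psmb7, all Hdac2 ECKO and labelled Ezh2 ECKO libraries lay below all WT libraries, and beta-catenin GOF overlapped WT. These ratios were not tested. Among the denominators, Psmb5, Psmb6 and Psmb7 had log2 fold changes of −0.72, −0.10 and −0.49 in Hdac2 ECKO (edgeR adjusted p 0.174, 0.839 and 0.216), with Psmb5 and Psmb7 below all WT values; in the other mutants they ranged from −0.04 to 0.43 and none passed (edgeR adjusted p 0.629 to 0.999).

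**Figure D4:**
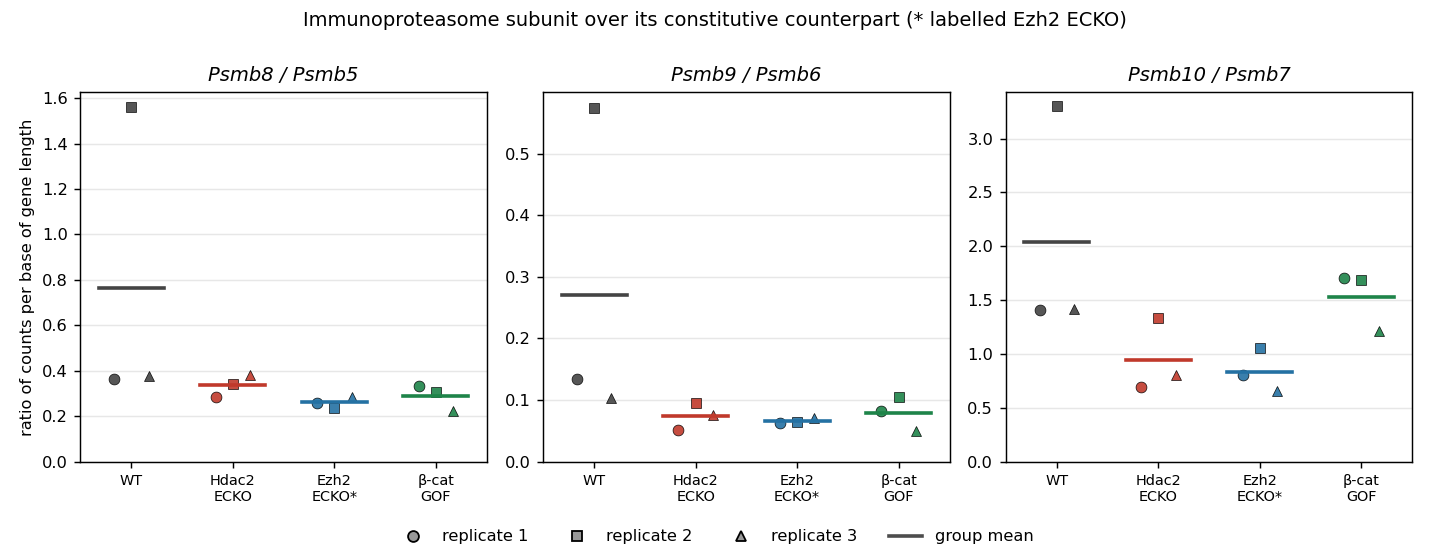
Ratio of each immunoproteasome subunit to the constitutive subunit it replaces, in counts per base of gene length, per library (symbols) with group means (bars). WT replicate 2 has the highest ratio in all 3 panels, at 1.56, 0.573 and 3.30; WT replicates 1 and 3 lie within the Hdac2 ECKO range for Psmb8 over Psmb5 and above it in the other panels.

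Nlrc5 (ENSMUSG00000074151.13, chromosome 8, 94434356 to 94527272, plus strand), the transactivator of class I genes, had the lowest group mean of the members in CPM in WT, Hdac2 ECKO and beta-catenin GOF but not in labelled Ezh2 ECKO, and the lowest per kb of gene length in all 4 groups. It was at 2.19, 37.2 and 5.38 CPM in WT, or 63, 1175 and 151 counts. It was at 8.37, 5.61 and 19.0 CPM in Hdac2 ECKO, 11.2, 5.55 and 14.2 CPM in labelled Ezh2 ECKO, and 4.91, 3.30 and 1.34 CPM in beta-catenin GOF. WT replicates 1 and 3 lay below all libraries of the first 2 mutants, WT replicate 2 lay above all, and beta-catenin GOF had the lowest group mean, 3.18 CPM. The log2 fold changes were −0.44 (SE 0.78), −0.54 (SE 0.78) and −2.23 (SE 0.82), none past the threshold (edgeR adjusted p 0.721, 0.704 and 0.730). Without WT replicate 2 they were 1.54, 1.44 and −0.25. Against Hdac2 ECKO and the labelled Ezh2 ECKO libraries, beta-catenin GOF stood at −1.79 (SE 0.81) and −1.70 (SE 0.81), and neither difference passed (edgeR adjusted p 0.224 and 0.383).

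Direct comparison of the mutants, which does not use the WT libraries except for the shared estimate of spread, called 0 of 10 members in each of the 3 contrasts. The share of all tested genes called was 0.0239% for Hdac2 ECKO against labelled Ezh2 ECKO, 0.0716% for beta-catenin GOF against Hdac2 ECKO and 0.0636% for beta-catenin GOF against labelled Ezh2 ECKO. At an unadjusted p under 0.05 edgeR had 0, 2 and 0 members, where 8.19%, 21.1% and 13.2% of tested genes were; limma-trend called 0 members in all 3. In beta-catenin GOF against Hdac2 ECKO, DESeq2 and voom each called 1 member (and 9.6% and 26.5% of genes), and 0 in the other contrasts. Without a filter edgeR called 2 members there (4.81% of genes), 1 in beta-catenin GOF against labelled Ezh2 ECKO (1.76%) and 0 between Hdac2 ECKO and labelled Ezh2 ECKO. The 2 members at an unadjusted p under 0.05 were Psmb10, higher in beta-catenin GOF than in Hdac2 ECKO by 1.23 (SE 0.42, edgeR adjusted p 0.169), and Nlrc5. H2-D1 was also above Hdac2 ECKO in all 3 beta-catenin GOF libraries, by 0.62 (SE 0.30, edgeR adjusted p 0.248), where 16.1% of tested genes did not overlap in that direction. A p that misses the threshold does not show that the mutants are alike.

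Compared per kb of gene length, the order of the members was nearly the same in every group. B2m stood first, at 16871 CPM per kb in WT and from 10042 to 16879 in the mutants. H2-D1 (291), H2-K1 (181), Psmb10 (173), Psmb8 (155) and Psmb9 (79.3 CPM per kb) followed in WT, with SDs that exceed the steps between them. Tapbp (21.4), Tap1 (5.47), Tap2 (4.06) and Nlrc5 (1.76) came last. H2-K1 stood above H2-D1 in labelled Ezh2 ECKO, at 146 ± 48.0 against 124 ± 27.4 CPM per kb, Psmb10 stood above H2-K1 in beta-catenin GOF, at 132 ± 44.9 against 111 ± 17.8, and Tap2 stood above Tap1 in all 3 mutants. Each of those steps is smaller than the larger of the SDs except Tap2 over Tap1 in Hdac2 ECKO, 3.07 ± 0.63 against 2.09 ± 0.70, and in beta-catenin GOF, 2.97 ± 0.76 against 1.64 ± 0.20 (SD, n = 3 each). Lengths were those of the deposited table. They were 5476 bases for Tap1 and 3781 for Tap2, where the longest protein-coding transcripts have 2953 and 3442. The order of members close in level, Tap2 and Tap1 among them, therefore depends on the length used.

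How the members varied together depended on WT replicate 2. Psmb8 and Psmb9 correlated across the 12 libraries with r = 0.98 on log2(CPM + 1) and with r = 0.96 over the 11 libraries without it. Tap1 and Psmb9, which overlap head to head, correlated with r = 0.69 and then −0.36, Tap1 and Tap2 with 0.73 and then 0.05, and H2-K1 and H2-D1 with 0.46 and then −0.03. Against the mean of the other 9 members, Psmb9 had r = 0.91 and 0.64, Psmb8 0.84 and 0.45, Tap1 0.78 and −0.13, and Nlrc5 0.48 and −0.22. The points share a scaling to library total and fall into 4 groups, so these values are descriptions. The mean log2(CPM + 1) over the members was 8.52 in WT replicate 2, 7.08 and 6.64 in WT replicates 3 and 1, and 6.31 to 7.01 in the mutant libraries; WT replicate 1 ranked 9 of 12 from the top.

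The 6 tested genes outside the lists whose pattern was most like that mean were Zbp1 (r = 0.96), Gm12185 (0.94), Il18bp (0.92), Crym (0.90), Plgrkt (0.90) and 9930111J21Rik2 (0.89), of 12371 genes ranked over 12 libraries. All 6 were highest in WT replicate 2. Zbp1 was at 8.19, 124 and 22.6 CPM in WT and at 6.59 to 12.1 CPM over the mutants, and Gm12185 was at 51.7, 984 and 54.3 CPM in WT and at 19.2 to 57.2 CPM over the mutants. Without that library the correlations were 0.73, 0.55, 0.37, −0.44, 0.62 and 0.53.

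Upstream regulators differed in their pattern. Irf1 was at 137, 228 and 50.9 CPM in WT, against 38.6, 35.9 and 40.7 in Hdac2 ECKO, 32.1, 24.6 and 32.1 in labelled Ezh2 ECKO, with 37.2, 55.6 and 45.1 in beta-catenin GOF. The first 2 mutants lay below all WT libraries, and Irf1 fell in them by 1.85 and 2.23 on the log2 scale (edgeR adjusted p 0.0323 and 0.0435); in beta-catenin GOF the log2 fold change of −1.59 did not pass (edgeR adjusted p 0.404). Without WT replicate 2 they were −1.29, −1.67 and −1.03, and none passed (edgeR adjusted p 0.0997, 0.153 and 0.998). Rfx5 was at 5.55 to 6.52 CPM in WT and at 9.76 to 13.4 CPM in Hdac2 ECKO, higher by 0.98 on the log2 scale without passing (edgeR adjusted p 0.0971). Of the 19 class I transcription factors tested, 1 fell (Irf1) and 2 rose in Hdac2 ECKO, the NF-kappaB subunit gene Nfkb1 by 1.16 and the CREB factor gene Creb1 by 0.97 (edgeR adjusted p 0.0379 and 0.0401), both named after their values were seen; in labelled Ezh2 ECKO 1 fell and in beta-catenin GOF, where no gene was called, 0 passed. Among all tested genes 5.38% were called lower and 3.82% higher in Hdac2 ECKO, and 0.684% lower in labelled Ezh2 ECKO. Rfx5, Nfkb1 and Creb1 were at 0.98, 1.32 and 0.87 in Hdac2 ECKO without WT replicate 2.

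Other heavy chain and loading genes were examined as lists. Of 16 heavy chain genes tested, 5 fell in Hdac2 ECKO: H2-D1, and, named after their values were seen, the non-classical genes H2-T22 (−1.15), H2-T23 (−1.41) and H2-M3 (−1.08) and the neonatal Fc receptor gene Fcgrt (−1.18, log2 fold change; edgeR adjusted p 0.0338 to 0.0498 for the 5). Over all tested genes 5.38% were called lower in Hdac2 ECKO. The H2-T and H2-M genes share sequence with their family, so their counts are uncertain. The list's median was −0.88 in Hdac2 ECKO, where those 5 passed, and −0.87 and −0.72 in labelled Ezh2 ECKO and beta-catenin GOF, where 0 passed; without WT replicate 2 the medians were −0.64, −0.59 and −0.46 and 0 passed in any. H2-T22, H2-T23, H2-M3 and Fcgrt were then at −0.81, −0.87, −0.86 and −1.17 in Hdac2 ECKO. Of 18 loading, trimming and chaperone genes, 3 fell in Hdac2 ECKO, named after their values were seen: Pdia3 (−1.48), a disulfide isomerase of the loading complex, the lectin chaperone gene Calr (−1.20) and the isomerase gene P4hb (−1.11), with edgeR adjusted p 0.0372, 0.0434 and 0.0497. These 3 of 18 likewise stand beside the 5.38% of all tested genes called lower there. The list's median was −0.07, near that of all genes, and 0 passed in the other mutants. Without WT replicate 2, in a fit that called 0 genes in all, Pdia3, Calr and P4hb were at −1.40, −0.87 and −1.02 and did not pass.

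Few proteasome genes outside the catalytic sites passed. For comparison, 5.38% of all tested genes were called lower in Hdac2 ECKO and 0.342% higher in labelled Ezh2 ECKO. Of 16 other core subunits and maturation factors, 0 passed in Hdac2 ECKO and in beta-catenin GOF, while 2 and 0 stood at an unadjusted p under 0.05 by edgeR, against 33.1% and 6.07% of tested genes. In labelled Ezh2 ECKO 1 rose, the assembly chaperone gene Psmg2, from 82.9, 95.0 and 96.1 CPM in WT to 173, 220 and 181 CPM, by 1.07 on the log2 scale (SE 0.22, edgeR adjusted p 0.0448); without WT replicate 2 its value of 1.10 no longer passed (edgeR adjusted p 0.156). Of the 4 proteasome activator genes, Psme1, which encodes a subunit of the interferon-inducible PA28 cap, fell in Hdac2 ECKO. It was at 343, 732 and 331 CPM in WT and at 149, 279 and 203 CPM there, a change of −1.16 on the log2 scale (SE 0.34, edgeR adjusted p 0.0465), or −0.68 without WT replicate 2 (edgeR adjusted p 0.195). Its partner Psme2 was at 393, 1192 and 697 CPM in WT and at 360, 465 and 462 CPM in Hdac2 ECKO, a log2 fold change of −0.83 that did not pass (edgeR adjusted p 0.149).

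The interferon lists were read beside the members. Of 25 interferon-gamma responsive genes tested, 8 fell in Hdac2 ECKO, 3 (Irf1, Socs1 and Igtp) in labelled Ezh2 ECKO and none in beta-catenin GOF, with medians of −1.96, −2.24 and −2.42. Over all tested genes 5.38%, 0.684% and 0% were called lower, and no gene was called in beta-catenin GOF. The share called higher in Hdac2 ECKO was 3.82%. Of 20 type I interferon responsive genes, 9, 4 (Irf7, Ifit3, Oasl2 and Usp18) and 0 fell, with medians of −0.99, −0.87 and −0.62. Of 12 interferon receptor and signalling genes, 3 fell in Hdac2 ECKO (Socs1, Usp18 and the interferon-gamma receptor gene Ifngr1, by 1.28) and 1 rose (the phosphatase gene Ptpn11, by 1.10); Socs1 and Usp18, 2 genes, fell in labelled Ezh2 ECKO and 0 passed in beta-catenin GOF. Igtp, Usp18 in the latter libraries, Ifngr1 and Ptpn11 are named after their values were seen. Without WT replicate 2, 0 genes of these 3 lists passed in any mutant, in fits that called 0, 2 and 0 genes in all, with medians of −0.33, −0.55 and −0.58 for the interferon-gamma list and −0.78, −0.43 and −0.18 for the type I list.

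The naming rule, which takes list genes past the threshold in order of p, took 6 in Hdac2 ECKO. Irf7, the interferon regulatory factor of the type I response, was at 114, 184 and 47.0 CPM in WT and at 15.4, 19.8 and 14.8 CPM, a fall of 2.78 on the log2 scale (SE 0.43). Socs1, the inhibitor of JAK signalling, was at 15.5, 16.8 and 6.91 CPM in WT and at 1.59, 1.44 and 0.971 CPM. Its log2 fold change was −3.29 (SE 0.56), and WT replicate 2 was close to WT replicate 1 for this gene. Isg15 (−1.72), Usp18 (−1.35), Ifit3 (−2.06) and Oas1a (−1.77), effectors and a feedback inhibitor of the type I response, also fell, and all 6 had an edgeR adjusted p of 0.0323. In labelled Ezh2 ECKO Irf7 (−2.52), Socs1 (−2.82), Ifit3 (−2.04) and the antiviral gene Oasl2 (−1.80) fell, with edgeR adjusted p 0.0360, 0.0448, 0.0448 and 0.0463, beside Irf1 and Psmg2. Without WT replicate 2 the log2 fold changes of Irf7 and Socs1 were −2.27 and −3.07 in Hdac2 ECKO and −2.01 and −2.59 in labelled Ezh2 ECKO, and none passed (edgeR adjusted p 0.0911 to 0.156).

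Markers of other cells were summed in every library, and of the immune and blood lists given here the class II list alone had its highest level in WT replicate 2. The summed level of 10 markers of class II antigen presenting cells was 21.97, 114 and 46.0 CPM in WT replicates 1, 2 and 3, 6.02 to 7.37 in Hdac2 ECKO, 6.06 to 8.17 in labelled Ezh2 ECKO and 5.30 to 14.8 in beta-catenin GOF. All 9 mutant libraries lay below WT for this list. Among its genes, the invariant chain gene Cd74 was at 11.9, 42.2 and 21.6 CPM in WT and at most 2.93 CPM in any mutant library, and Flt3 and Cd209a were at 0 in all WT libraries. Of its 6 tested genes, 6, 6 and 5 had log2 fold changes below 0 in Hdac2 ECKO, labelled Ezh2 ECKO and beta-catenin GOF. Without WT replicate 2 these were 5, 5 and 4. H2-DMa was then higher in Hdac2 ECKO, at 3.31 CPM against 0.83 in WT. The 18 leukocyte and microglia markers summed to 28.7, 25.0 and 20.5 CPM in WT replicates 1, 2 and 3. Their sums were 6.24 to 10.5 in Hdac2 ECKO, 4.99 to 37.5 in labelled Ezh2 ECKO and 4.57 to 9.06 in beta-catenin GOF. Of the 12 tested genes of this list, 11, 9 and 10 had log2 fold changes below 0 in the mutants, in that order. Cd53 was at 0 in all 9 mutant libraries. Csf1r went the other way in labelled Ezh2 ECKO, at a mean of 6.14 CPM against 1.78 in WT. For beta-catenin GOF it stood at 2.82 CPM against 1.30 in WT when WT replicate 2 was left out. The 14 lymphocyte markers summed to 5.21, 5.32 and 9.33 CPM in WT and to 1.88 to 5.34 CPM over the mutants, with Cd4 at 0 in all 12 libraries. Red cell and platelet markers, 9 genes, summed to 36148, 38269 and 61418 CPM in WT, 406 to 21723 in Hdac2 ECKO, 2532 to 6715 in labelled Ezh2 ECKO and 528 to 35413 in beta-catenin GOF. Haemoglobin genes dominate that sum, with Hba-a1 at 11296 CPM and the platelet gene Pf4 at 4.24 in WT replicate 2. Without that library the platelet genes differed in direction in Hdac2 ECKO. Pf4 and Itga2b were at 9.37 and 9.08 CPM there, against 6.00 and 7.83 in WT. Ppbp was at 7.04 against 12.6. The 14 pericyte and smooth muscle markers summed to 101, 131 and 180 CPM in WT, and to 194 to 426, 75.8 to 102 and 167 to 606 CPM in the mutants in the same order. Of the 13 tested genes of this list, 0, 5 and 1 had log2 fold changes below 0 in that order. In Hdac2 ECKO 5 were called higher, where 3.82% of tested genes were. Without WT replicate 2, 0 passed there, in a fit that called 0 genes in all. In bulk libraries fewer cells of a type and less RNA per cell cannot be told apart, and the part of these markers in the differences of the class I genes was not tested. No library or sequencing batch is given in the labels, so no comparison within batches could be made.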

How the data were processed

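RNA-seq of 12 sorted endothelial libraries was read from 1 deposited table of gene counts. Its title calls the values normalized, but they are whole numbers whose totals differ, so they were treated as raw counts. Even numbers made up 79.5% to 84.0% of the values between 10 and 50 and 59.4% to 67.1% of those between 300 and 1000. The cause of this excess was not tested, so a count may not equal 1 sequenced fragment, which also bears on the floor and the filter. Per the submitters' processing notes, FastQC, cutadapt, STAR, featureCounts, DESeq2 and the build mm10 were used; roles, versions and strand setting are not given in the sources used here.

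Groups and replicate numbers came from the sample titles. Counts were fitted with edgeR 4.0.16 in R 4.3.3 (quasi-likelihood F test, TMM scaling, 1 model over 12 libraries, genes averaging 10 counts or more), with Benjamini-Hochberg adjustment over the 12577 tested genes of each contrast and a threshold of 0.05. The standard error was derived from the F statistic. The lowest level resolved was set at 3 counts, which covers counting error only. Counts of every replicate pair within a group differed beyond sampling noise (chi-square per degree of freedom at least 66.3). The fits were tested on simulated data.

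The members and gene lists were chosen with earlier results of these data known. All members are named; of the other lists, at most 6 genes per contrast past the threshold in order of p, plus Psmb5, Psmb6, Psmb7, Irf1, Rfx5, Psme1 and Psme2; another gene of that rule is not reported here. Genes of similar pattern were ranked by Pearson correlation with the members' mean log2(CPM + 1). Positions are GRCm38, counted from 1; 98.3% of the table's genes had the start and end of GENCODE M21. Same-numbered libraries of Hdac2 ECKO and labelled Ezh2 ECKO deviated together (r 0.193, 0.426 and 0.131), a pairing read from the data and not from the labels; 0 members passed there with or without the replicate block. Alternatives were other filters, scalings and tools (DESeq2 1.42.0, limma 3.58.1), the replicate block, removal of a length and GC trend, and leaving out each library; leaving out WT replicate 2 for the lists was chosen after seeing the data.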

Additional observations from a re-analysis of the deposited data

How the results depend on the processing

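Members past the threshold in Hdac2 ECKO against WT numbered 4, and 4 or 5 under the other filters, scalings, tools and the 2-group fit. Removing the length and GC trend gave 0, and that trend with the replicate block gave 2. Leaving out single libraries gave 0 to 4. In labelled Ezh2 ECKO against WT, with 0 members, no filter gave 5, a mean count of at least 50 gave 1, DESeq2 2, limma-trend 1, sample quality weights 6, and single libraries left out 0 to 4. In beta-catenin GOF against WT no filter gave 4 and single libraries left out 0 to 0. In beta-catenin GOF against Hdac2 ECKO no filter gave 2, DESeq2 1 and sample quality weights 1, and in beta-catenin GOF against labelled Ezh2 ECKO no filter gave 1. The cause of these shifts was not tested.

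The replicate numbers did not pair the libraries of any mutant with WT (lowest r of deviations −0.19, −0.17 and −0.25). With the replicate block 4, 3 and 0 members passed in Hdac2 ECKO, labelled Ezh2 ECKO and beta-catenin GOF against WT, and 0 in each comparison of mutants.

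For single members against WT, 427 of 510 alternative values kept direction and side of the threshold, 31 passed newly, 22 no longer passed and 30 changed sign, 11 of these without WT replicate 2. In Hdac2 ECKO, Tapbp was 0.20 with library size alone, 0.00047 with limma-trend, 0.19 with the trend removed, 0.23 with block and trend, and −0.30 to 0.34 with single libraries left out; Nlrc5 was 0.34 with limma-trend and −1.13 to 1.54 with libraries left out, Tap1 −1.85 to 0.58 and Tap2 −0.66 to 0.12. In labelled Ezh2 ECKO, B2m was −0.0034 with no filter, −0.013 with a mean of at least 50, −0.011 with median-ratio factors and with DESeq2, −0.046 with sample quality weights, −0.0090 in the 2-group fit, −0.22 with the trend removed, −0.18 with block and trend, and −0.34 to 0.33 with libraries left out. H2-K1 was 0.18 with the trend removed, 0.14 with block and trend and −0.61 to 0.036 with libraries left out, Nlrc5 0.33 with limma-trend and −1.05 to 1.44, and Tap1 −2.08 to 0.34. In beta-catenin GOF, with libraries left out, Tap1 was −2.19 to 0.24, Tap2 −0.70 to 0.070, Tapbp −0.53 to 0.070 and Psmb10 −0.67 to 0.10.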
